A study of Citrus sinensis with 4 samples.

Results

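The sweet orange gene tables of this study list 600 loci whose identifiers begin with Citrus_newGene, beside 22604 models named Cs and 5832 named orange1.1t. These 600 loci, chosen by identifier alone, are the subject here, and they make up 2.07% of the 29036 gene models in all. Poly(A) RNA of fruit endocarp was sequenced from 2 sweet orange (Citrus sinensis) cultivars at 2 stages. The 4 groups were Dahongtiancheng at 70 days after full bloom (DH70), Bingtangcheng at 70 days (BT70), Dahongtiancheng at 50 days (DH50) and Bingtangcheng at 50 days (BT50). The labels name no treatment or allele for any of them, and each group has 1 library. The sources used here do not say how many fruits or trees went into a library, and no difference between 2 libraries has a replicate check.

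The endocarp is the innermost layer of the fruit wall of citrus, from which the juice sacs grow. Loci that gene tables set apart as new are usually places where sequenced RNA maps outside the gene models of an annotation. Such places are known to include protein-coding genes that an annotation missed, long noncoding RNAs, transposable elements and unannotated ends of neighbouring genes. The sources used here do not say how the Citrus_newGene loci were defined, and the word "new" rests on their identifiers only. The files give each locus a position, a length and a strand, but no name, exon map or sequence, so that no function can be given for any of them. Their identifiers run from 1 to 2388, and 25.1% of these numbers are listed.

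The libraries held 16192148 fragments for DH70, 16445383 for BT70, 16253052 for DH50 and 14040916 for BT50. Levels are given in CPM, the fragment count of a model scaled to library size with TMM factors. In this unit 1 fragment was worth 0.0576 to 0.0668 CPM, and 3 fragments, the limit that a count of 0 allows, 0.173 to 0.201 CPM. The Citrus_newGene loci took 0.584% of the fragments (exact 95% binomial interval 0.581 to 0.588) in DH70, 0.502% (0.498 to 0.505) in BT70, 0.510% (0.506 to 0.513) in DH50 and 0.554% (0.550 to 0.558) in BT50. Counting error is the only error in these and all later intervals. DH70 had the largest share, but this order rests on Citrus_newGene_2305, without which the share in DH70 was 0.543%, below the 0.554% of BT50.

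Coordinates are those of the deposited tables, whose genome build the sources used here do not give. The loci were spread over all 9 numbered chromosomes and the unplaced sequence. Chromosome 1 held 69 loci, or 26.7 for every 1000 other models, and chromosome 6 held 32, or 15.2 for every 1000. On the other numbered chromosomes the density lay between 18.0 and 22.2. The unplaced sequence held 129 loci, 22.1 for every 1000 other models. Both strands were used about alike, with 309 loci on the plus strand and 291 on the minus strand.

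**Figure D1:**
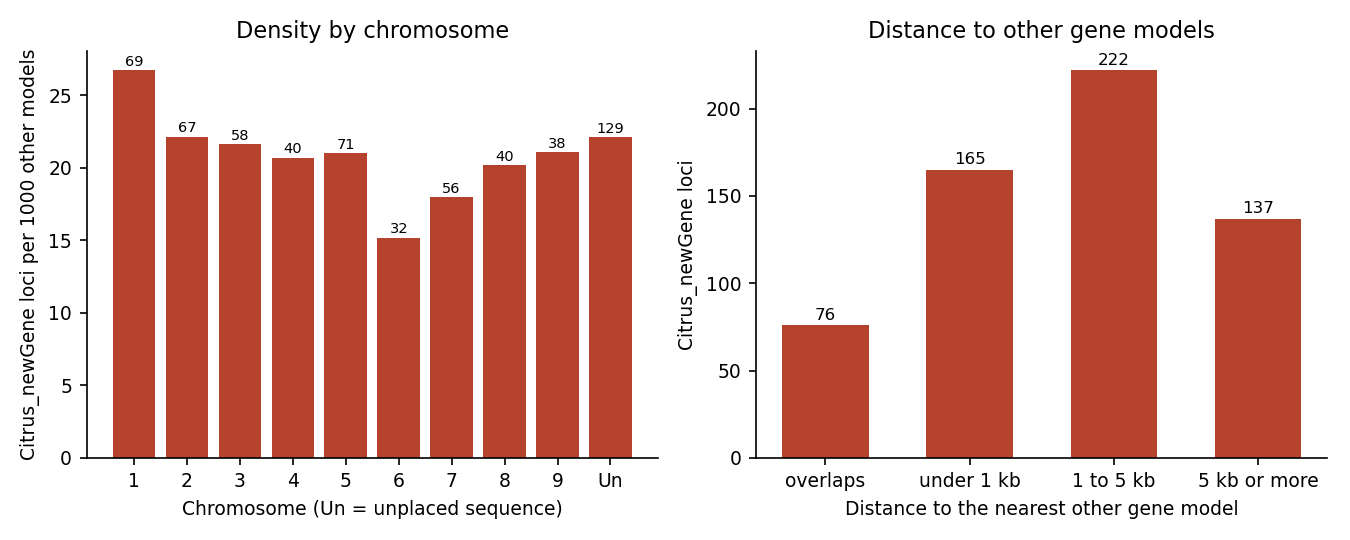
Left, Citrus_newGene loci for every 1000 other gene models, by chromosome, with the number of loci above each bar. Right, the number of loci by distance to the nearest other gene model. Chromosome 1 was the densest at 26.7 and chromosome 6 the least dense at 15.2, and 76 of the 600 loci overlapped another model.

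The Citrus_newGene loci differed from the other models in their structure as deposited. Their length, the number of bases counted for a locus, ran from 219 to 7783 with a median of 1028.5 bases, compared with a median of 1176 bases for the other models. Their span, from start to end on the genome, had a median of 1941.5 bases, compared with 2121 bases for the others. In 0 of the 600 loci did length and span coincide, whereas they coincided in 7111 of the 28436 other models. The smallest number of bases within the span but outside the length was 53, and the median was 523 bases. Every locus thus had bases left out of its length. Introns are commonly left out in this way, but the files do not say what was. The shortest loci, under 200 bases, were lacking too: 0 loci were that short, compared with 861 of the other models.

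Lengths also differed in their divisibility by 3, a property of coding sequences counted from start to stop codon. A multiple of 3 was found for 200 loci (33.3%) and for 74.5% of the other models. The files do not say whether the length covers the same parts of a transcript in both sets. These shares therefore do not tell coding from noncoding loci, and lengths of the sets may not be alike in meaning. The longest locus by length was Citrus_newGene_1513 (chromosome 7, 19335914 to 19343935, minus strand), at 7783 bases. It had 436 fragments in DH70 and 276 in BT70, against 299 in DH50 and 247 in BT50. The longest span was that of Citrus_newGene_1944 (chromosome 9, 8867276 to 8891414, minus strand), where 537 bases of length lay within 24139 bases. Its counts were 85 in DH70, 60 in BT70, 76 in DH50 and 54 in BT50, and none of the 4 library pairs compared below differed 1.5-fold after scaling.

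Most loci lay between other gene models. An overlap of at least 1 base with another model was found for 76 loci (12.7%), and 10.4% of the other models overlapped one another in the same way. Of the 76 loci, 58 overlapped a model on their own strand and 18 overlapped models on the opposite strand only. The Citrus_newGene locus lay wholly inside the span of the other model in 65 cases, 10.8% of all loci, compared with 5.25% among the other models. The overlapped models were long, with a median span of 17631.5 bases. Since the files give no exons, it cannot be told whether such a locus lies in an intron of the longer model or shares its exons.

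Among the 524 loci without overlap, the distance to the nearest other model had a median of 1970 bases, close to the 1982 bases between the other models. It was under 1 kb for 165 loci, between 1 and 5 kb for 222 and at least 5 kb for 137. The nearest model was on the same strand for 269 loci (51.3%, compared with 51.9% of the other models) and on the opposite strand for 255. Within 1 kb the same strand was less frequent, with 76 loci, than the opposite strand, with 89. The farthest locus from any other model was Citrus_newGene_2235 (unplaced sequence, 11733210 to 11738328), at 88759 bases. It was followed by Citrus_newGene_2145 (unplaced sequence, 48309958 to 48310479), at 59994 bases, and Citrus_newGene_331 (chromosome 2, 24334011 to 24339426), at 43931 bases. Positions on the unplaced sequence run as 1 series of numbers, and the sources used here do not say whether neighbours there are neighbours in the genome.

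Some loci covered the same ground on the 2 strands. There were 20 pairs of Citrus_newGene loci that overlapped each other, 0 of them on the same strand, with between 736 and 6138 shared bases. In 16 of these pairs the shorter locus lay wholly inside the longer one. The pair with the most fragments was Citrus_newGene_1265 (plus strand, 4448363 to 4450757) and Citrus_newGene_1304 (minus strand, 4448826 to 4450967) on chromosome 6. Citrus_newGene_1265 had 1995 fragments in DH70, 2984 in BT70, 2370 in DH50 and 2447 in BT50. Citrus_newGene_1304 had 4471 in DH70, 3678 in BT70, 5464 in DH50 and 3967 in BT50. Both strands carried counts in every library. The sources used here do not say whether the libraries or the counting kept the strand, so fragments of such a pair cannot be divided with certainty, and the same holds for loci that overlap other models.

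The 18 loci that overlapped other models on the opposite strand only had modest levels. Citrus_newGene_554 (chromosome 3, 3026315 to 3029957, plus strand) had the most fragments of them, 275 in DH70, 300 in BT70, 370 in DH50 and 367 in BT50. It lay within the 138516 bases of Cs3g03060. Next came Citrus_newGene_1037 (chromosome 5, 32756708 to 32758428, plus strand), with 105 and 136 fragments in DH70 and BT70 and 99 and 100 in DH50 and BT50, opposite Cs5g30990. Citrus_newGene_1435 (chromosome 7, 2301541 to 2305048, plus strand), opposite Cs7g04540, had 124 and 84 fragments in DH70 and BT70 and 100 and 112 in DH50 and BT50. None of these 3 loci differed 2-fold between any pair of libraries compared here.

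The loci were detected more often than the other models, and those that reached 10 fragments had lower levels than the other models that did. All 600 had a fragment in at least 1 library, compared with 72.9% of the other models. If RNA mapped in these libraries was a condition for listing a locus, frequent detection was fixed in advance. The sources used here do not say whether it was, so the shares detected are a description only. The same condition would list loci through the libraries where they are high. Later shares of loci called, or on and off, are therefore a description too. Fragments in all 4 libraries were found for 508 loci (84.7%) and for 17062 of the 28436 others. At least 10 fragments in at least 1 library were reached by 587 loci (97.8%) and by 59.5% of the other models. Among the models that reached 10 fragments, the mean level over the 4 libraries had a median of 2.38 CPM for the loci and 21.0 CPM for the others. Per kilobase of length the medians were 2.07 and 13.0 CPM. Over all 600 loci and all 28436 other models the medians of the mean level were alike, at 2.25 and 2.20 CPM. A mean under 1 CPM was found for 29.3% of the loci and 46.0% of the other models. A mean of at least 50 CPM was found for 16 loci (2.67%), compared with 16.8% of the other models, while 250 loci (41.7%) lay between 1 and 5 CPM, compared with 9.26%. The median count of a locus was 34 fragments in DH70, 27 in BT70, 39 in DH50 and 33 in BT50, so that counting error is large for many of them.

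**Figure D2:**
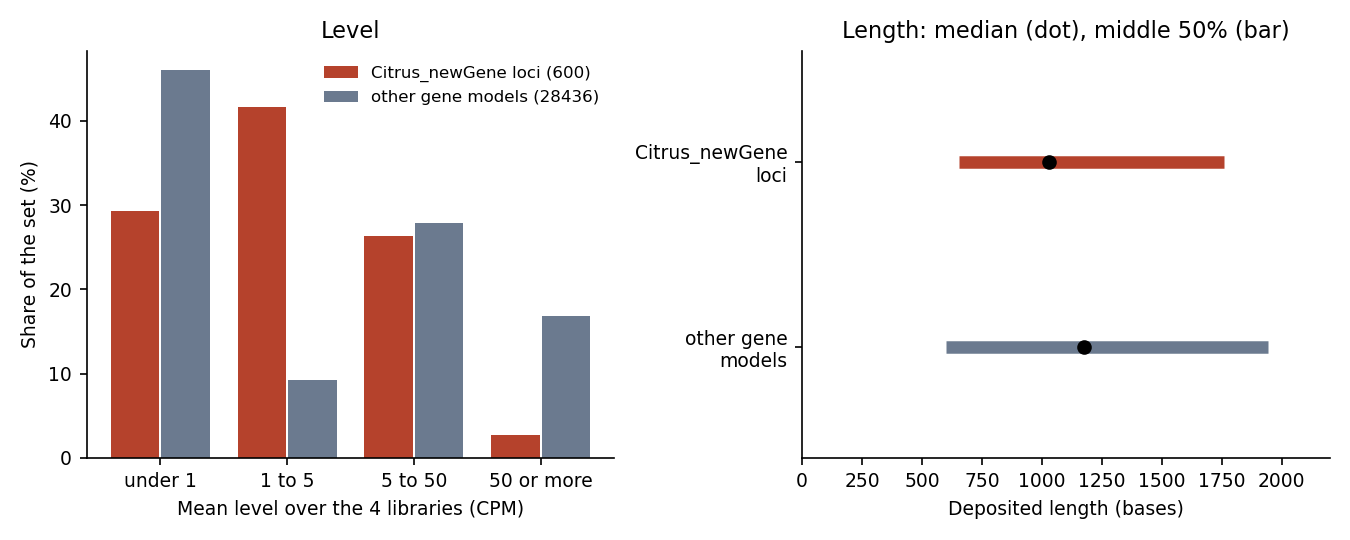
Left, the share of the 600 Citrus_newGene loci and of the 28436 other models by mean level over the 4 libraries (CPM). Right, deposited length in bases, with the median as a dot and the middle 50% of each set as a bar. The loci crowd between 1 and 5 CPM (41.7% against 9.26%), and their median length is 1028.5 bases against 1176.

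A few loci were abundant. Citrus_newGene_994 (chromosome 5, 6082232 to 6084005, plus strand) had the highest mean level, with 445 CPM in DH70 and 618 CPM in BT70, against 297 CPM in DH50 and 212 CPM in BT50. It was 2.91-fold higher at 70 days in Bingtangcheng (95% counting interval 2.80 to 3.03). In Dahongtiancheng the log2 ratio of 70 over 50 days was 0.58, short of 2-fold. With a length of 475 bases it also stood highest per kilobase, at a mean of 827 CPM for each kilobase, and the next locus, Citrus_newGene_1304, had 145. Citrus_newGene_831 (chromosome 4, 209091 to 211848, plus strand) had 243 CPM in DH70 and 404 CPM in BT70, against 315 CPM in DH50 and 269 CPM in BT50. Its log2 ratios of 70 over 50 days were -0.38 in Dahongtiancheng and 0.58 in Bingtangcheng, of opposite sign and both short of 2-fold.

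Citrus_newGene_1304 and Citrus_newGene_2098 (unplaced sequence, 22248118 to 22250897, plus strand) varied less. Citrus_newGene_1304 had 298 CPM in DH70 and 246 in BT70, against 315 in DH50 and 255 in BT50. Citrus_newGene_2098 had 269 CPM in DH70 and 244 in BT70, against 171 in DH50 and 208 in BT50. In both cases the highest library exceeded the lowest by less than 2-fold. By mean level these 4 loci ranked above between 97.2% and 98.8% of all models.

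Steady loci were found at moderate levels. Of the 111 loci with a mean of at least 10 CPM, 37 (33.3%) stayed within 1.5-fold over the 4 libraries. The share was 49.0% for the other models with such a mean, but the sets are not matched for level. A mean of at least 50 CPM was found for 16 of these loci and for 4780 of those 11040 models. The smallest range was that of Citrus_newGene_1005 (chromosome 5, 14525007 to 14529071, plus strand), with 12.9 CPM in DH70, 11.9 in BT70, 11.6 in DH50 and 12.6 in BT50. Citrus_newGene_1746 (chromosome 8, 13718308 to 13721182, minus strand) stayed between 12.2 and 13.8 CPM. Citrus_newGene_1055 (chromosome 5, 9027590 to 9029251, minus strand), 268 bases from the nearest other model, had 40.4 CPM in DH70, 41.4 in BT70, 39.5 in DH50 and 36.2 in BT50. Over the 4 libraries the highest level exceeded the lowest 1.11-fold, 1.13-fold and 1.14-fold in these 3 loci.

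The first comparison asked which loci differed between 70 and 50 days in each cultivar. A locus was called higher or lower if 1 of the 2 libraries reached 10 fragments and 1 CPM, if the levels differed at least 2-fold, and if it had a 99% exact counting interval of the ratio that excluded 1. No p-value belongs to this size rule. In RNA of whole tissue, fewer cells of a type and less RNA per cell cannot be told apart. In Dahongtiancheng 93 loci were higher and 66 lower at 70 days, and 127 of the 600 did not reach the expression floor. These are 19.7% and 13.95% of the 473 at the floor, and over all models the rule called 9.57% higher and 12.6% lower. In Bingtangcheng 61 loci were higher and 89 lower at 70 days (13.3% and 19.4% of 459), against 7.94% and 13.2% of all models. Among models that reached 10 fragments the loci are weaker than the others, and these shares are not matched for level. The balance of directions depended on the scaling: with total counts alone, 73 loci were higher and 76 lower in Dahongtiancheng and 46 and 127 in Bingtangcheng. In the same way the median log2 ratio of the loci at the floor was 0.10 in Dahongtiancheng and -0.23 in Bingtangcheng, and total counts shift every log2 ratio by -0.21 and -0.29, which turns the sign of the first.

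The same direction in both cultivars was shown by 32 loci that were higher at 70 days and 30 that were lower. At the floor in both cultivars were 410 loci, of which these are 7.80% and 7.32%, against 4.12% and 7.6% of all models. With total counts alone the numbers were 22 and 40. By level, the loci called in either direction were 7 of 18 under 1 CPM (38.9%, compared with 31.0% of the other models). They were 33 of 220 between 1 and 5 CPM (15%, compared with 19.7%), fewer than among the other models. Between 5 and 50 CPM they were 20 of 156 (12.8%, compared with 10.9%), and from 50 CPM 2 of 16 (12.5%, compared with 8.20%). The 32 higher loci summed to 1051 CPM in DH70 and 501 in BT70, against 167 in DH50 and 156 in BT50. Without Citrus_newGene_2305 the sums were 600 CPM in DH70 and 481 in BT70, against 166 in DH50 and 156 in BT50. The 30 lower loci summed to 50.2 CPM in DH70 and 84.8 in BT70, against 262 in DH50 and 342 in BT50. The lower loci were weaker, with a median mean level of 2.05 CPM against 5.74 CPM for the higher ones, and they more often went to 0: 5 had no fragment in DH70 and 7 had none in BT70. At least 4-fold in both cultivars was reached by 9 of the higher and 20 of the lower loci.

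**Figure D3:**
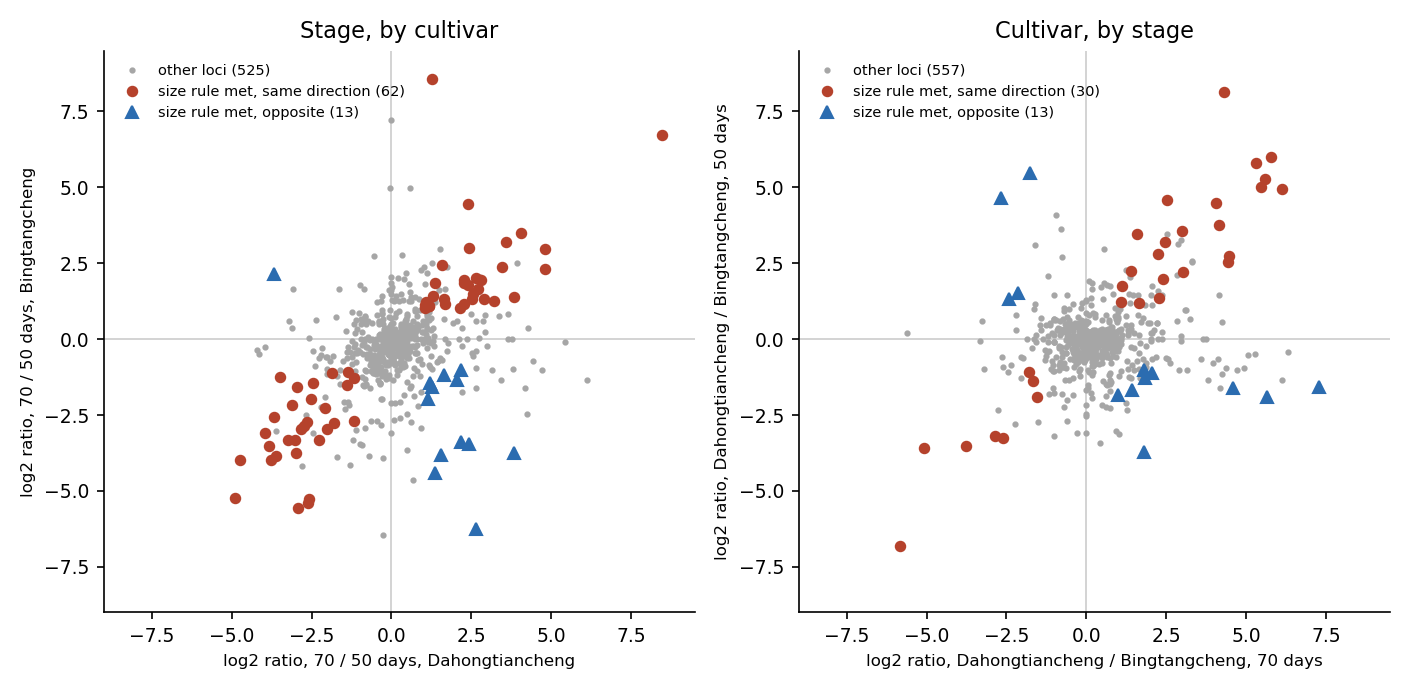
Each point is 1 of the Citrus_newGene loci. Left, log2 ratio of 70 over 50 days in Dahongtiancheng (x axis) and Bingtangcheng (y axis). Right, log2 ratio of Dahongtiancheng over Bingtangcheng at 70 days (x axis) and 50 days (y axis). Circles met the size rule in the same direction in both pairs (62 loci on the left, 30 on the right), triangles in opposite directions (13 on each side).

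Citrus_newGene_2305 (unplaced sequence, 44192043 to 44194611, minus strand, length 2415) led the loci higher at 70 days. It had 451 CPM in DH70 and 20.2 CPM in BT70, against 1.15 CPM in DH50 and 0.0642 CPM, or 1 fragment, in BT50. The ratio of 70 over 50 days was 392 (253 to 642) in Dahongtiancheng and 314 (56.0 to 12461) in Bingtangcheng. It was the most abundant locus of the DH70 library, and it also met the size rule between the cultivars at both stages. At 70 days its level was 22.3-fold higher in Dahongtiancheng (95% counting interval 19.9 to 25.1). At 50 days the ratio was 17.9 (2.87 to 743), with a wide interval since it rests on 20 fragments against 1. The nearest other model lies 15200 bases away.

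The next loci by rank had lower counts. Citrus_newGene_1270 (chromosome 6, 10165359 to 10166438, plus strand) had 216 fragments in DH70 and 52 in BT70, against 13 in DH50 and 3 in BT50. Its level was 19.2-fold (11.0 to 36.7) higher at 70 days in Dahongtiancheng and 18.0-fold (5.84 to 90.4) in Bingtangcheng. Both cultivars thus showed about the same ratio. The locus was 4.14-fold (3.05 to 5.72) lower in Bingtangcheng at 70 days. At 50 days it was not called between the cultivars, on 13 fragments against 3. It lay inside Cs6g08150 on the same strand, a model of 49803 bases with 47 fragments in DH70 and 29 in BT70, against 31 in DH50 and 34 in BT50, and it was not called between the stages. The ends of both at 10166438 coincide. Citrus_newGene_565 (chromosome 3, 7647832 to 7649513, plus strand) had 42 fragments in each 70-day library, against 2 in DH50 and 3 in BT50, and was 24.3-fold (6.32 to 207) and 14.6-fold (4.66 to 73.5) higher at 70 days in Dahongtiancheng and Bingtangcheng.

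Citrus_newGene_334 (chromosome 2, 26084567 to 26086703, plus strand) had 461 fragments in DH70 and 112 in BT70, against 17 in DH50 and 13 in BT50. It was 31.4-fold (19.4 to 54.3) higher at 70 days in Dahongtiancheng and 8.97-fold (5.04 to 17.4) in Bingtangcheng. The 50-day libraries were close to each other, and the cultivars differed at 70 days, 4.10-fold (3.33 to 5.09). Cs2g26290, which ends 82 bases upstream on the same strand, had 33 fragments in DH70 and 88 in BT70, against 81 in DH50 and 89 in BT50. In Dahongtiancheng it was called lower at 70 days (log2 ratio -1.04), opposite to the locus beside it, and in Bingtangcheng it was not called (0.04).

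Of the loci lower at 70 days, Citrus_newGene_2123 (unplaced sequence, 33694887 to 33695481, plus strand) had 0 fragments in DH70 and BT70, against 63 in DH50 and 72 in BT50. With 3 fragments in place of 0, its level was 18.1-fold lower in Dahongtiancheng and 23.0-fold lower in Bingtangcheng. The 95% counting intervals, taken from the count of 0 itself, start at 14.3 and 18.3. Citrus_newGene_337 (chromosome 2, 27027107 to 27038924, plus strand) had 0 fragments in DH70 and 6 in BT70, against 57 in DH50 and 128 in BT50. With 3 fragments in place of 0, its level was 16.4-fold lower in Dahongtiancheng, with an interval that starts at 12.9. In Bingtangcheng it was 20.5-fold (9.16 to 56.9) lower. Both loci thus had at most 6 fragments in the 70-day libraries.

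Citrus_newGene_19 (chromosome 1, 11870220 to 11871102, plus strand) had 3 fragments in DH70 and 0 in BT70, against 76 in DH50 and 29 in BT50. It was 21.9-fold (7.21 to 109) lower at 70 days in Dahongtiancheng. In Bingtangcheng it was 9.28-fold lower with 3 fragments in place of 0, with an interval that starts at 7.08. Citrus_newGene_1739 (chromosome 8, 10438614 to 10440074, minus strand) had 1 fragment in DH70 and 2 in BT70, against 39 in DH50 and 56 in BT50. The ratios of 33.7 (5.70 to 1365) in Dahongtiancheng and 26.9 (7.10 to 228) in Bingtangcheng, both lower at 70 days, rest on these few fragments. Its nearest model, Cs8g10955 on the opposite strand, was also called lower in both cultivars, with 163 fragments in DH70 and 173 in BT70, against 611 in DH50 and 607 in BT50.

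As a second reading, a single model of the 4 libraries, with additive terms for cultivar and stage, treated the cultivars as the replicates of a stage. It has 1 residual degree of freedom per model and counts any cultivar-specific change as error. Its p-values measure only the spread between these libraries. Tested by quasi-likelihood in edgeR and adjusted by Benjamini-Hochberg over 17504 models, it gave 15 loci higher and 12 lower at 70 days, out of 587 tested. Among all models the shares were 3.12% higher and 4.66% lower, and for the loci they were 2.56% and 2.04%. DESeq2 with the same terms called 22 higher and 17 lower of 520 loci, against 5.24% and 6.29% of all models. For the 8 loci just described the edgeR adjusted p-values ran from 0.00888 to 0.0430. They were ranked on the same libraries, so these values are no independent support.

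The next comparison asked which loci differed between the cultivars. In Dahongtiancheng 94 loci were higher and 37 lower at 70 days, 21.1% and 8.30% of the 446 at the floor, against 7.21% and 5.64% of all models. At 50 days 44 were higher and 43 lower (9.48% and 9.27% of 464), against 2.73% and 3.62% of all models. The ratios of the loci spread more widely than those of all models, with a standard deviation of the log2 ratio over loci of 1.65 at 70 days and 1.35 at 50 days, compared with 0.95 and 0.64 over all models at the floor. Low counts widen this spread, and their part in it was not tested. Across the 522 loci at the floor in any library, the log2 levels of DH70 and BT70 correlated at r = 0.762, and those of DH50 and BT50 at r = 0.796. For the 16170 other models these values were 0.937 and 0.966. The correlations are not matched for level or for its range either, and the part of these was not tested. The loci of a pair share their libraries and are not independent replicates.

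At both stages 22 loci were higher and 8 lower in Dahongtiancheng, out of 388 at the floor in both pairs. These are 5.67% and 2.06%, against 0.795% and 0.632% of all models. By level, the loci called at both stages were 3 of 7 with a mean under 1 CPM (42.9%, compared with 13.6% of the other models at that level), 19 of 208 loci between 1 and 5 CPM (9.13%, compared with 4.26% of the other models at that level), 7 of 157 between 5 and 50 CPM (4.46%, compared with 0.923%) and 1 of 16 from 50 CPM (6.25%, compared with 0.251%). The first and last of these classes hold few loci. The 22 loci higher in Dahongtiancheng summed to 646 CPM in DH70 and 131 CPM in DH50, against 47.5 CPM in BT70 and 10.6 CPM in BT50. Without Citrus_newGene_2305 these sums were 195 and 129 CPM in Dahongtiancheng, against 27.3 and 10.5 CPM in Bingtangcheng. The 8 lower loci summed to 3.80 and 4.61 CPM in Dahongtiancheng at 70 and 50 days, against 55.0 and 57.2 CPM in Bingtangcheng.

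The 4 highest-ranked loci of the first group were all without a single fragment in both Bingtangcheng libraries. Citrus_newGene_2056 (unplaced sequence, 481516 to 485244, plus strand) had 103 fragments in DH70 and 139 in DH50, against 0 in BT70 and BT50. Its level was at least 34.2-fold and at least 41.6-fold higher in Dahongtiancheng at 70 and 50 days, with intervals that start at 27.3 and 33.3. Citrus_newGene_382 (chromosome 2, 26220297 to 26221982, minus strand) had 74 in DH70 and 120 in DH50, against 0 in BT70 and BT50. Its folds by the same setting were 24.6 at 70 days and 35.9 at 50 days, with intervals that start at 19.5 and 28.7. It lies inside Cs2g26370 on the same strand, a model of 38943 bases that had 471 fragments in DH70 and 503 in DH50, against 579 in BT70 and 400 in BT50, so the surrounding model was counted in both cultivars.

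Citrus_newGene_2236 (unplaced sequence, 12256119 to 12259742, minus strand) had 90 fragments in DH70 and 83 in DH50, against 0 in BT70 and BT50. With 3 fragments in place of 0, its level was 29.9-fold and 24.8-fold higher in Dahongtiancheng at 70 and 50 days. The intervals start at 23.8 and 19.7. Citrus_newGene_1471 (chromosome 7, 22512597 to 22515373, plus strand) had 83 in DH70 and 69 in DH50, against 0 in BT70 and BT50. For it the folds by the same setting were 27.6 and 20.6, with intervals that start at 21.9 and 16.3. Within Dahongtiancheng none of these 4 loci differed by 2-fold between the stages.

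Among the loci lower in Dahongtiancheng, Citrus_newGene_43 (chromosome 1, 20319063 to 20324426, plus strand) led, with 0.466 CPM in DH70 and 0.230 CPM in DH50, against 34.0 CPM in BT70 and 40.4 CPM in BT50. The level was 73.0-fold (35.2 to 182) and 176-fold (68.3 to 647) lower in Dahongtiancheng at 70 and 50 days, on 7 and 4 fragments there. Its nearest model, Cs1g17110 at 835 bases, had 0 fragments in every library. Citrus_newGene_1529 (chromosome 7, 27962602 to 27965248, minus strand) had 0 fragments in DH70 and DH50, against 63 in BT70 and 22 in BT50. With 3 fragments in place of 0, that is 21.1-fold and 8.18-fold lower in Dahongtiancheng at 70 and 50 days. The intervals start at 16.6 and 6.11. Citrus_newGene_1477 covers the same place on the plus strand (27962483 to 27966988) and had 118 fragments in DH70 and 1 in DH50, against 32 in BT70 and 36 in BT50. The 2 loci of this place thus had different patterns over the libraries.

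For 2 of the 8 lower loci, Citrus_newGene_1269 and Citrus_newGene_549, the nearest model was called lower at both stages too, and for the other 6 it was called at neither. Citrus_newGene_1269 (chromosome 6, 8716739 to 8717677, plus strand) had 0 fragments in DH70 and DH50, against 24 in BT70 and 21 in BT50. With 3 fragments in place of 0, that is 8.03-fold and 7.81-fold lower in Dahongtiancheng. The intervals start at 6.04 and 5.81. Cs6g06760 begins 560 bases downstream on the same strand and had 0 fragments in DH70 and DH50, against 71 in BT70 and 72 in BT50. Citrus_newGene_549 (chromosome 3, 1107442 to 1110035, plus strand) had 1 fragment in DH70 and 0 in DH50, against 19 in BT70 and 16 in BT50. At 70 days it was 19.1-fold (3.03 to 792) lower in Dahongtiancheng. At 50 days it was 5.95-fold lower with 3 fragments in place of 0, with an interval that starts at 4.30. It lies inside Cs3g01830 on the same strand and shares its end, 1110035. Cs3g01830 had 1 and 0 fragments in DH70 and DH50, against 31 and 21 in BT70 and BT50. In both places the locus and the other model were counted in Bingtangcheng and at most by 1 fragment in Dahongtiancheng. Since Citrus_newGene_549 and Cs3g01830 overlap, their fragments cannot be divided with certainty, and their counts may not be separate.

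**Figure D4:**
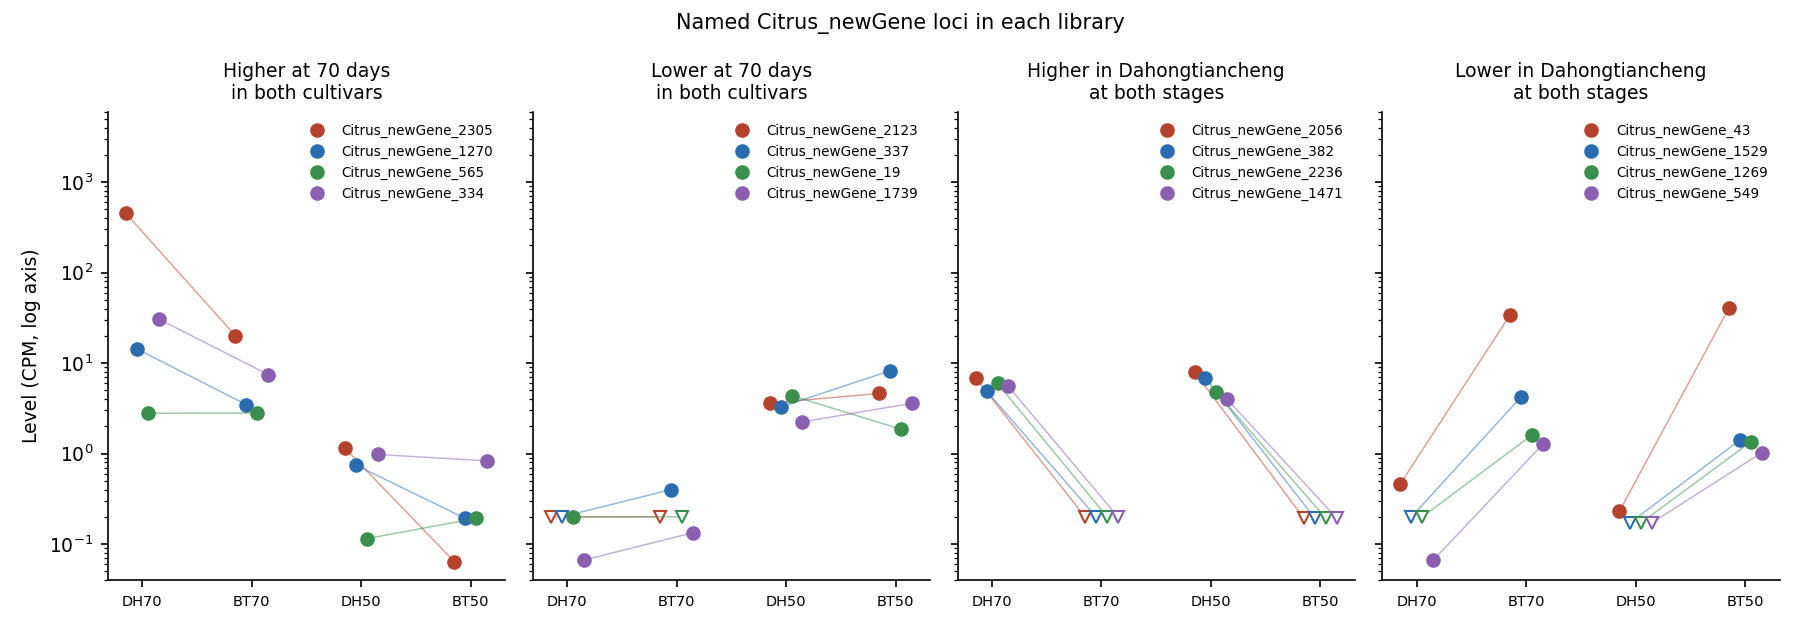
Level in CPM (log axis) of the 16 loci ranked highest in 4 groups, in the 4 libraries; lines join the cultivars of a stage. Open triangles mark a count of 0, drawn at the level of 3 fragments (between 0.173 and 0.201 CPM), so a filled point below them is a count of 1 or 2. In the third panel all 4 loci have 0 fragments in both Bingtangcheng libraries.

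With stage as the second term, the additive edgeR fit gave 0 loci higher and 0 lower in Dahongtiancheng at the 0.05 level after adjustment, and likewise 0 of all models. In edgeR the lowest adjusted p-value of any locus was 0.0619, shared by Citrus_newGene_2305 and Citrus_newGene_43. Without adjustment, p lay under 0.05 for 53 of 587 loci (9.03%) and for 802 of 17504 models (4.58%). The Wald test of DESeq2 with the same terms called 9 loci higher and 2 lower in Dahongtiancheng, against 0.28% and 0.114% of all models. All 11 were among the 30 loci that met the size rule at both stages.

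Loci on in some libraries and off in others were counted by thresholds chosen after the data were seen, at least 20 fragments for on and at most 2 for off. On in both Dahongtiancheng libraries and off in both Bingtangcheng libraries were 17 models, and 8 of them (47.1%) were Citrus_newGene loci. Of the models on in at least 1 library, 2.96% were such loci. That base share is not matched for level: with a mean between 1 and 5 CPM there were 250 loci beside 2632 other models. If loci were listed because RNA mapped in these libraries, an excess of such patterns may also be partly fixed in advance. The sources used here do not say. Besides the 4 loci without any Bingtangcheng fragment named above, the 8 include Citrus_newGene_2322 (unplaced sequence, 54358193 to 54366170, minus strand, length 7761), with 132 fragments in DH70 and 136 in DH50, against 0 in BT70 and 2 in BT50. They also include Citrus_newGene_2183 (unplaced sequence, 72697362 to 72699710, plus strand), with 56 in DH70 and 615 in DH50, against 1 in BT70 and 0 in BT50. This last locus differed by stage as well, 9.49-fold (7.21 to 12.7) lower at 70 days in Dahongtiancheng. These examples were picked after their values were seen.

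The reverse pattern, on in both Bingtangcheng and off in both Dahongtiancheng libraries, was shown by 10 models, of which 2 were Citrus_newGene_1269 and Citrus_newGene_1529. On at 70 days and off at 50 days in both cultivars were 6 models, 0 of them Citrus_newGene loci. On at 50 days and off at 70 days were 25 models and 5 of the loci. Off in the BT50 library alone were 14 models, 6 of them Citrus_newGene loci, whereas 4 of 40 models were off in BT70 alone, 3 of 24 in DH70 alone and 1 of 6 in DH50 alone. In the 2 crossed patterns, DH70 with BT50 and BT70 with DH50, 3 models each were on with the other libraries off, and 0 of them were Citrus_newGene loci.

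**Figure D5:**
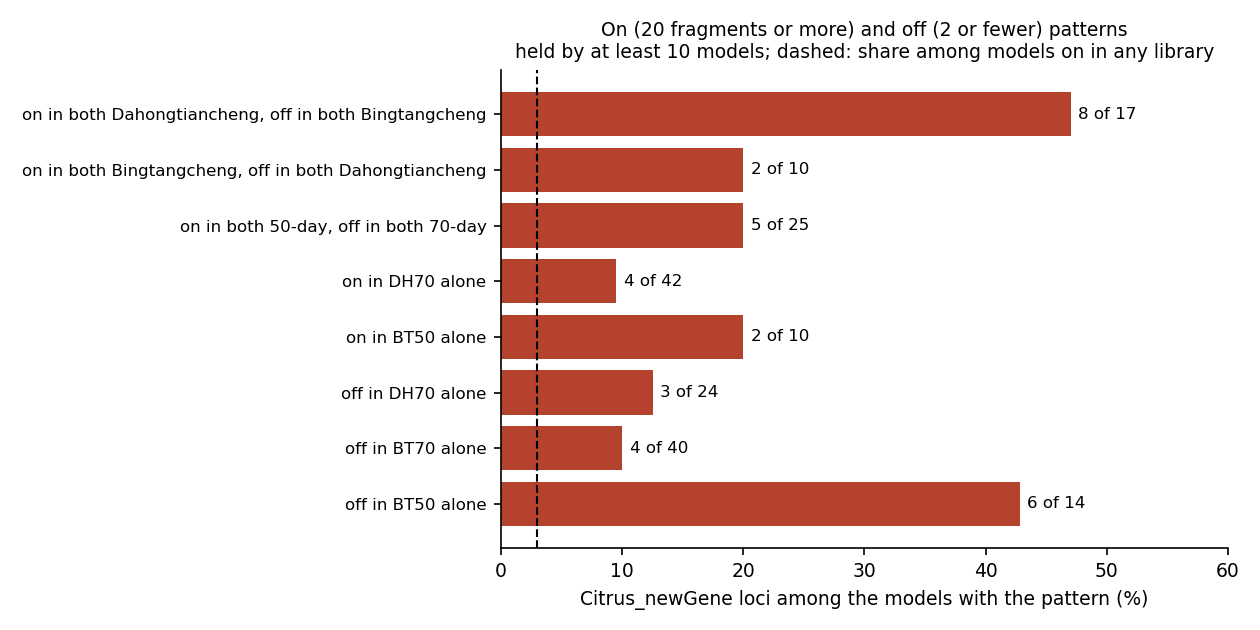
Share of Citrus_newGene loci (x axis, percent) among the models that are on (at least 20 fragments) in the named libraries and off (at most 2) in the others, for patterns held by at least 10 models. The number of loci and of models stands at each bar, and the bar for both Dahongtiancheng libraries reaches 47.1%. The dashed line marks the 2.96% among models on in any library, which is not matched for level.

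The last comparison asked for which loci the cultivars differed in their change between the stages. For 71 loci the Dahongtiancheng over Bingtangcheng ratio was larger by 2-fold or more at 70 days, and for 31 it was smaller, counting those with a 99% counting interval that excluded no change. These are 13.6% and 5.94% of 522 loci, against 7.34% and 6.04% of all models. Citrus_newGene_591 (chromosome 3, 18959265 to 18960075, plus strand) had 613 fragments in DH70 and 2 in BT70, against 112 in DH50 and 305 in BT50. It was 305-fold (84.2 to 2528) higher in Dahongtiancheng at 70 days and 3.04-fold (2.44 to 3.81) lower at 50 days, a ratio of ratios of 741 (210 to 2613). Citrus_newGene_102 (chromosome 1, 17987573 to 17988013, minus strand) had 131 fragments in DH70 and 0 in BT70, against 0 in DH50 and 3 in BT50. It was thus high in 1 library of the 4.

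Smaller ratios at 70 days were largest in size for Citrus_newGene_2235 and Citrus_newGene_1045. Citrus_newGene_2235, the locus farthest from other models, had 172 fragments in DH70 and 1091 in BT70, against 82 in DH50 and 1 in BT50. It was 6.36-fold (5.41 to 7.52) lower in Dahongtiancheng at 70 days and 73.5-fold (12.8 to 2940) higher at 50 days. Citrus_newGene_1045 (chromosome 5, 184750 to 185959, minus strand) had 124 in DH70 and 427 in BT70, against 146 in DH50 and 1 in BT50. At exactly the same start and end on the plus strand, Citrus_newGene_985 had 661 in DH70 and 156 in BT70, against 167 in DH50 and 327 in BT50. The pair therefore went in opposite directions between the cultivars at each stage, in a place where strands cannot be told apart with certainty. The calls of both loci depend on how fragments were divided between the strands. The summed level of the place was not tested.

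Direction could also be opposite within a single contrast. Between the stages 13 loci were called in opposite directions in the 2 cultivars, 12 of them higher in Dahongtiancheng and lower in Bingtangcheng at 70 days (2.93% of 410, against 0.604% of all models) and 1 the reverse (0.244%, against 0.223%). Between the cultivars 13 loci were called in opposite directions at the 2 stages, 9 of them higher in Dahongtiancheng at 70 days and lower at 50 days (2.32% of 388, against 0.658% of all models) and 4 the reverse (1.03%, against 0.345%). Citrus_newGene_657 (chromosome 3, 26310432 to 26324856, minus strand) had the most fragments, 2990 in DH70 and 1486 in BT70, against 1110 in DH50 and 3549 in BT50. It was 3.12-fold (2.91 to 3.34) higher at 70 days in Dahongtiancheng and 2.29-fold (2.16 to 2.44) lower in Bingtangcheng. DH70 and BT50 were thus the high libraries.

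Citrus_newGene_344 (chromosome 2, 1763327 to 1765134, minus strand) had the same high libraries, with 533 fragments in DH70 and 151 in BT70, against 256 in DH50 and 469 in BT50. Citrus_newGene_1051 (chromosome 5, 5482042 to 5488864, minus strand) had 260 in DH70 and 94 in BT70, against 493 in DH50 and 1430 in BT50. It was 14.6-fold (11.9 to 18.2) lower at 70 days in Bingtangcheng, while in Dahongtiancheng the difference of 1.64-fold (1.41 to 1.91) in the same direction was short of 2-fold. Dahongtiancheng was higher at 70 days and lower at 50 days.

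Over all 4 pairs of libraries, 292 of the 522 loci at the floor in any library met the size rule at least once (55.9%), compared with 33.0% of the other models and 33.8% of all models, and 230 never did. These shares are not matched for level either. The share was lowest, 41.1%, for loci within 1 kb of another model. It was 52.2% for those that overlapped one, 63.3% between 1 and 5 kb and 65.5% from 5 kb on. The loci within 1 kb also had the highest median level, 3.50 CPM, compared with between 1.92 and 2.19 CPM in the other 3 classes. DH70 was the library with the highest level for 189 loci at the floor (36.2%, compared with 29.6% of all models), and BT70 was it for 95 (18.2%, compared with 25.2%). BT50 was highest for 140 (26.8%, compared with 25.8%) and DH50 for 98 (18.8%, compared with 19.4%).

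Called in all 4 pairs were 12 loci, 3.35% of the 358 at the floor in every pair, against 0.909% of all models. Besides those named above they include Citrus_newGene_78 (chromosome 1, 12952874 to 12953845, minus strand), with 239 fragments in DH70 and 40 in BT70, against 51 in DH50 and 0 in BT50. Citrus_newGene_1721 (chromosome 8, 22063906 to 22067351, plus strand) had 670 in DH70 and 82 in BT70, against 142 in DH50 and 9 in BT50, and Citrus_newGene_1718 (chromosome 8, 19370493 to 19371557, plus strand) had 366 in DH70 and 43 in BT70, against 59 in DH50 and 10 in BT50. Citrus_newGene_1721 overlaps Cs8g20220 on the same strand. Each of these 3 was higher at 70 days in both cultivars and higher in Dahongtiancheng at both stages. They were named because of this pattern, which is a description.

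Neighbouring models mostly did not share the calls of the loci. Of the 159 loci called between the stages in Dahongtiancheng, the nearest other model was called in the same direction for 15, in the opposite direction for 8 and not at all for 136. In Bingtangcheng these numbers were 16, 5 and 129 of 150. For the cultivars they were 9, 2 and 120 of 131 at 70 days and 5, 3 and 79 of 87 at 50 days. The shares in the same direction, between 5.75% and 10.7%, compare with between 2.13% and 9.51% for other models and their nearest neighbours. Over loci and neighbours that were both at the floor, the log2 ratios correlated weakly, with r between 0.0700 and 0.237 in the 4 comparisons over 275 to 293 pairs, and with r between 0.0613 and 0.0648 for the other models. Within 1 kb on the same strand r was 0.526 between the cultivars at 50 days over 49 pairs and 0.338 at 70 days over 51 pairs, but 0.0193 and -0.0442 between the stages. Between the cultivars at 50 and 70 days, r was 0.238 and -0.0735 within 1 kb on the other strand. It was 0.329 and 0.245 for overlapping loci, -0.212 and 0.318 from 1 to 5 kb, and 0.0346 and 0.175 from 5 kb on. Same-strand values were not computed for the other models.

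One stretch of chromosome 1 held 3 loci with the same pattern. Citrus_newGene_100 (17948425 to 17948968), Citrus_newGene_101 (17949399 to 17949972) and Citrus_newGene_102, all on the minus strand, had 28, 150 and 131 fragments in DH70 and 0 each in BT70, against 1, 7 and 0 in DH50 and 3, 9 and 3 in BT50. DH70 was the high library for all of them. Of the 16 other models within 70 kb of Citrus_newGene_101, Cs1g14710 (18015823 to 18016274, minus strand) was the only one called higher in Dahongtiancheng at 70 days, with 373 fragments in DH70 and 1 in BT70, against 0 in DH50 and 10 in BT50. This stretch was picked after its values were seen.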

How the data were processed

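For each of the 4 libraries the deposited table holds, as its header names them, the raw fragment count, a scaled count (a normalized signal, not used here), an FPKM value and the position, length and strand of each model. Per the labels' protocols RNA came from frozen endocarps by Trizol and was enriched by poly(A) selection. The sources used here do not give the aligner, counter, strandedness, genome build or annotation, nor how the authors made the FPKM values, which served only as an alternative. A repeated header line, 1 per file, was skipped. Members were rows whose identifier begins with Citrus_newGene. 0 of the 29036 identifiers matched the RefSeq table of assembly DVS_A1.0, so no names or sequences are given.

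Counts were scaled by TMM (edgeR 4.0.16 in R 4.3.3), and log2 ratios used a prior count of 2. The size rule, on all models, needed 10 fragments and 1 CPM, a 2-fold ratio and a 99% Clopper-Pearson interval excluding 1. For the ratio of ratios a normal interval was used, from the 4 counts plus 0.5. Printed folds are plain ratios of CPM with 95% intervals. A count of 0 was set to 3 fragments per library for the fold, whereas the interval was taken from the count of 0 itself. edgeR's quasi-likelihood test and DESeq2 1.42.0 fitted cultivar and stage to models with at least 10 fragments in some library, adjusted by Benjamini-Hochberg, and the common dispersion was 0.0782. Distances ignore strand unless stated. The loci named are the highest ranked by abundance, by the smaller of 2 log2 ratios, by ratio of ratios, by steadiness, length, distance and opposite calls, and others are said to have been picked after their values were seen. The set of loci and these rules were chosen with earlier results of these data known.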

Additional observations from a re-analysis of the deposited data

Results flagged for a closer look

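The 13 loci called in opposite directions between the stages stand out because the only library pair of each cultivar moved against the other. The difference itself has no replicate check, since each cultivar has 1 library per stage. The ratio of ratios above measures it with counting error only. The first log2 ratio of each, 70 over 50 days, is that of Dahongtiancheng and the second that of Bingtangcheng. They were 2.19 and -3.38 for Citrus_newGene_311, 2.44 and -3.46 for Citrus_newGene_338, and 1.26 and -1.56 for Citrus_newGene_344. Citrus_newGene_591 had 2.64 and -6.24, Citrus_newGene_657 had 1.64 and -1.20, and Citrus_newGene_985 had 2.18 and -1.001. For Citrus_newGene_1038 they were 1.55 and -3.82, for Citrus_newGene_1318 3.83 and -3.74, and for Citrus_newGene_1443 1.36 and -4.40. Citrus_newGene_1449 had 2.05 and -1.35, Citrus_newGene_1484 had 1.14 and -1.97, and Citrus_newGene_2295 had 1.20 and -1.44. Citrus_newGene_1923 alone went the other way, with -3.67 and 2.14. In 6 of the 13 loci the BT70 library held 3 fragments or fewer, and Citrus_newGene_1923 had 0 in DH70. Citrus_newGene_985 has the same start and end as Citrus_newGene_1045 on the other strand, so its call depends on how fragments were divided between them.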

How the results depend on the processing

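Under total counts, median-of-ratios factors, no floor and the deposited FPKM, each count by the size rule stayed within 1.5-fold of its value above. A floor of 5 CPM leaves fewer loci to call. It gave 51 higher and 19 lower at 70 days in Dahongtiancheng (23.6% and 8.80% of loci, 8.42% and 10.8% of all models), 27 and 30 in Bingtangcheng (13.5% and 15.0%, against 7.33% and 10.5%) and 16 and 7 in both cultivars (9.14% and 4%, against 3.94% and 6.58%). In Dahongtiancheng against Bingtangcheng it gave 45 higher and 9 lower at 70 days (22.0% and 4.39%, against 4.99% and 4.25%), 13 and 11 at 50 days (6.67% and 5.64%, against 1.56% and 2.07%) and 6 and 1 at both stages (3.77% and 0.629%, against 0.444% and 0.258%). Ratios of ratios were larger for 37 and smaller for 14 (15.4% and 5.81%, against 6.43% and 6.1%). In the additive fit between the cultivars, which called 0 loci, edgeR without a filter called 4 higher and 1 lower, and DESeq2 called 9 and 2; the cause was not tested. Overlap with another model on the same strand was found for 9.67% of loci. The calls of the 16 loci ranked by direction stayed under each scaling. In the deposited FPKM the log2 ratio of Citrus_newGene_2305 between the stages in Bingtangcheng was 15.45, against 8.30 from the counts, where the 50-day value is 1 fragment. Stages were compared within cultivar in the additive fit, which holds cultivar as a term. No paired analysis by replicate number was possible because the labels give none. No library could be left out either, since each group would be empty. A mean level under 1 CPM was found for 176 of the 600 loci, where few fragments stand behind a value.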
